A study of Mus musculus with 6 samples.

Results

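The 9 genes described here encode ligands of the tumour necrosis factor (TNF) superfamily: Tnf, Lta, Ltb, Tnfsf8, Tnfsf10, Tnfsf11, Tnfsf14, Fasl and Cd70. They were chosen by symbol, and all 9 were found among the 49671 genes of the table. Ligands of this family are mostly membrane-anchored proteins that assemble into trimers and cluster receptors on neighbouring cells. Receptors with a death domain, such as Fas, can start apoptosis, and the others recruit TRAF adaptors and activate NF-kB. Activated CD8 T cells are a major source of several of these ligands, which serve in killing target cells, in costimulation and in the organisation of lymphoid tissue.

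RNA was sequenced from OT-I CD8 T cells, which carry a transgenic receptor for the ovalbumin peptide SIINFEKL, in 3 libraries labelled CD73 KO and 3 labelled WT. Both groups were spleen CD8 T cells of OT-I mice and had the same culture: the peptide at 10 ng/mL each day for 5 days with IL-7 and IL-15 (5 ng/mL each), a protocol meant to bring about exhaustion in vitro, followed by a sort of live cells. Nt5e encodes CD73, an ectoenzyme that makes adenosine from AMP, and the comparison asks what its loss changes in such cells. The labels name neither the knockout allele nor the age or number of mice, nor whether the libraries of a group are independent animals or cultures. The spread behind each p-value is that between these libraries and may be technical.

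The libraries held 6934150 to 19382950 counts each. CPM puts counts on a common depth, and TMM factors were applied to it here. From the total counts alone, before those factors, a single count was worth 0.0516 to 0.144 CPM. Nt5e stood at 3.67, 8.45 and 8.47 CPM in CD73 KO replicates 1 to 3 and at 22.5, 5.22 and 37.4 CPM in the libraries labelled WT replicates 1 to 3 (log2 fold change -1.67 ± 0.72 SE, adjusted p = 0.534 in edgeR's quasi-likelihood test). Against its label, the library named WT replicate 2 lay within the CD73 KO range, and every direction below rests in part on it. T cell markers were high in all libraries (7 of 7 detected, summed level 4576 to 5089 CPM in CD73 KO and 4244 to 4988 in WT). Of 4 CD4 T cell markers Cd4 had 0 to 5 counts, Foxp3 0 to 2 and Cd40lg 11 to 28, whereas Il2ra had 2950 to 6703. Their summed level, mostly that of Il2ra, was 251 to 431 CPM in CD73 KO and 423 to 524 in WT. Among the myeloid markers 4 of 6 (Lyz2, Csf1r, C1qa and Spi1) were at 0 in every library. Of 5 B cell markers Ms4a1 was at 0 in every library and Cd79a had 0 to 2 counts, whereas Cd79b had 4 to 44 and Ighm 4905 to 14845, and the summed level was 739 to 821 CPM in CD73 KO and 690.3 to 755 in WT. Of 5 dendritic cell markers Siglech and Xcr1 were at 0 and H2-Ab1 had 71 to 384 counts (sum 7.41 to 26.9 CPM in CD73 KO and 6.38 to 21.1 in WT). Of 5 NK cell markers Ncr1 had 1 to 8 counts, Klra8 0 to 4, Klrb1c 7 to 65, Tbx21 278 to 677 and Klrd1 2618 to 8887. Their summed level, mostly that of Klrd1, was 466 to 512 CPM in CD73 KO and 405 to 429 in WT. Of 4 stromal or endothelial markers Cdh5 was at 0 in every library, and the sum, mostly that of Pecam1, was 67.0 to 105.0 CPM in CD73 KO and 47.1 to 63.7 in WT. The part of these differences in the results below was not tested.

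Ltb was the most abundant ligand and Cd70 was near the floor. In RPKM (CPM per kilobase of merged exons), Ltb averaged 121 over the 6 libraries, with a range of 100.2 to 147.8. Then came Tnfsf10 (mean 23.3, range 16.3 to 34.5), Tnfsf8 (17.2, 14.1 to 22.5), Lta (16.4, 9.83 to 21.3), Tnf (12.9, 7.80 to 16.9), Fasl (11.5, 7.88 to 15.2), Tnfsf11 (9.93, 5.02 to 12.8) and Tnfsf14 (6.63, 5.32 to 8.38). Cd70 averaged 0.253 RPKM, from 0.092 to 0.380. In this order Ltb and Cd70 stood clear of their neighbours, and each of the 7 ligands between them overlapped the next one over the 6 libraries. Ltb made up 49.9% to 61.7% of the summed RPKM of the 9 ligands in CD73 KO libraries and 50.9% to 55.9% in those labelled WT. That sum was 236.2, 200.9 and 252.8 RPKM in CD73 KO and 222.7, 207.4 and 196.9 in WT, and the groups overlapped.

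**Figure D1:**
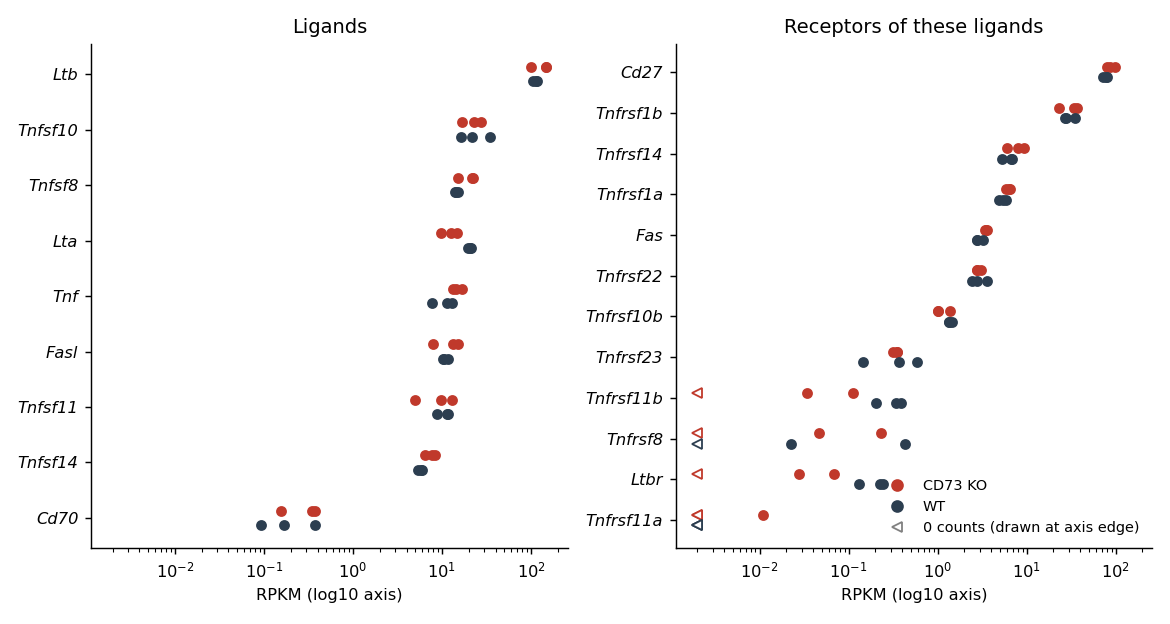
Levels per length (RPKM, log10 axis) of the 9 ligands (left) and of the 12 genes listed as their receptors (right), 1 point per library, with CD73 KO in red and WT in dark blue. Open triangles at the axis edge stand for libraries with 0 counts. Ltb stood at 100.2 to 147.8 RPKM in every library, Cd27 was the most abundant receptor gene, and 4 receptor genes lay at the bottom.

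Of the 9 ligands, 8 were tested and Cd70 was below the filter on low counts. No ligand passed the adjusted threshold of 0.05 in edgeR (0 of 8), against 7 of 12242 genes tested in all (0.0572%). At an unadjusted p under 0.05, Tnf, Tnfsf8 and Tnfsf14 were higher in CD73 KO and Lta was lower, 4 of 8 ligands against 9.64% of all genes (5.75% higher and 3.89% lower). For the same 4 genes the CD73 KO and WT libraries did not overlap, while over all genes 7.59% had every CD73 KO library above every WT library and 7.6% had it below. The ligands were chosen with earlier results of these data known, so no enrichment is read from these shares. The ligands were higher in CD73 KO in 5 cases and lower in 3, with a median log2 fold change of 0.19 (0.01 over all tested genes, 52.3% of which were higher), which was 0.045 without CD73 KO replicate 3. DESeq2 called 1 ligand, Lta (adjusted p = 0.0186), and limma-voom called 0. In simulated data with these library sizes edgeR called 24.1% of the genes given a 1.5-fold change, and 70.7% of those given a 2-fold one.

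**Figure D2:**
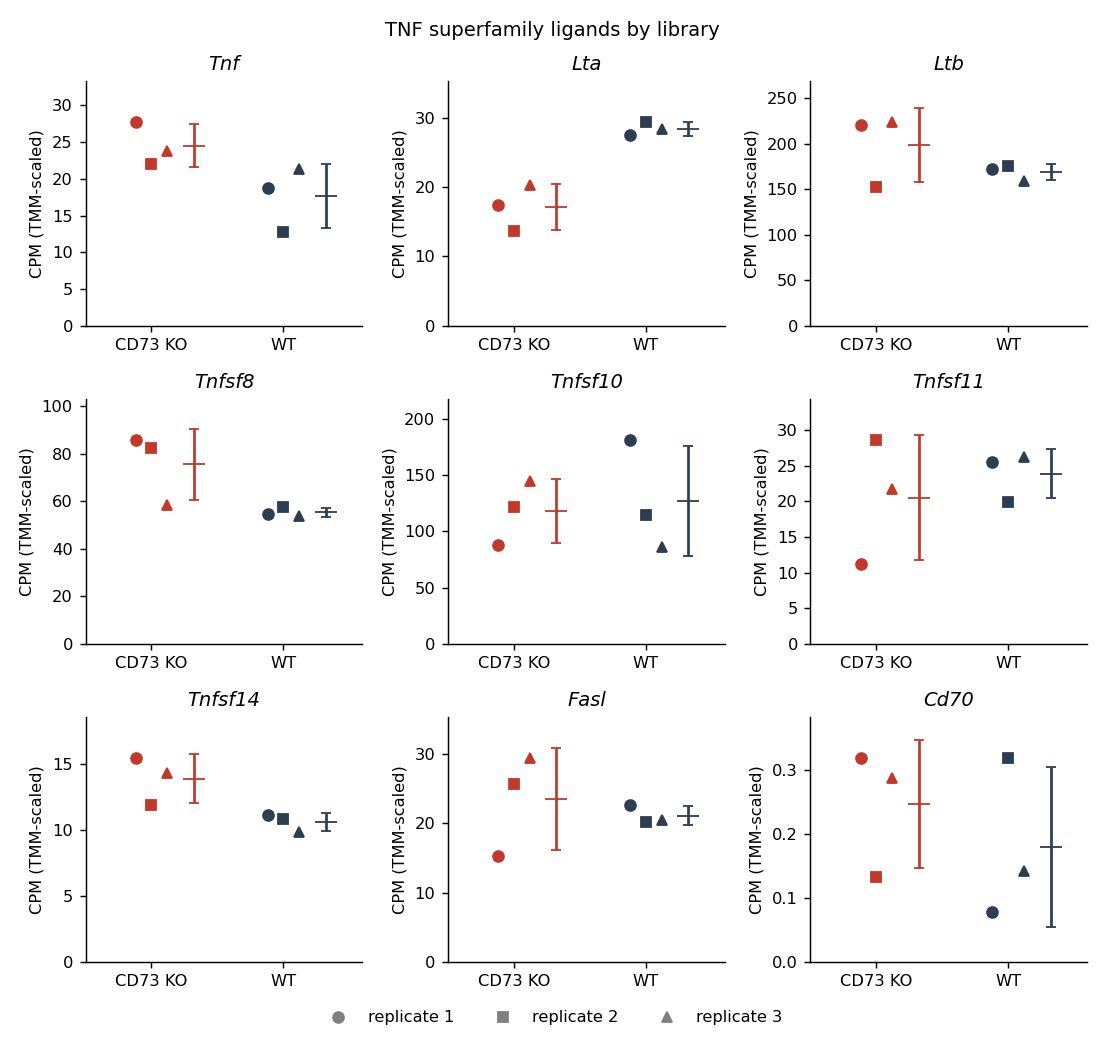
CPM (TMM-scaled) of each ligand in each library, with symbols for the replicate number and bars for the mean ± SD of 3 libraries; every axis starts at 0. The groups do not overlap for Tnf, Lta, Tnfsf8 and Tnfsf14; Lta is lower in CD73 KO (13.6 to 20.2 against 27.5 to 29.4 CPM) and the other three are higher.

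Tnf and Lta lie side by side and differed in opposite directions. Tnf encodes the founding cytokine of the family, made by T cells upon receptor stimulation and able to act on most cell types through TNFR1 and TNFR2. Lta encodes lymphotoxin alpha, which acts on the same receptors as a secreted trimer, and joins lymphotoxin beta at the cell surface to engage the lymphotoxin beta receptor. Tnf (ENSMUSG00000024401, chr17:35199381-35202007, minus strand, GRCm38) and Lta (ENSMUSG00000024402, chr17:35203165-35205351, minus strand) are separated by 1157 bases, and Ltb (ENSMUSG00000024399, chr17:35194439-35196320, plus strand) lies 3060 bases from Tnf.

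Lta was measured at 17.5, 13.6 and 20.2 CPM in CD73 KO replicates 1 to 3 and at 27.5, 29.4 and 28.3 CPM in the libraries labelled WT. All 3 CD73 KO libraries were low, and the WT libraries lay close together. The means were 17.1 ± 3.32 and 28.4 ± 0.975 CPM (SD, n = 3 each). The log2 fold change was -0.74 ± 0.16 SE (95% interval -1.10 to -0.37), which is 1.67-fold lower in CD73 KO, and Lta did not pass the adjusted threshold in edgeR (unadjusted p = 0.00103, adjusted p = 0.252). It passed in DESeq2 (above) and in edgeR without a filter on low counts (adjusted p = 0.00406), and it was lower with an unadjusted p under 0.05 in all 15 alternatives run (log2 fold change -0.87 to -0.60, adjusted p 0.00406 to 0.866). In bulk RNA, fewer cells that express a gene and less RNA per cell cannot be told apart.

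Tnf was measured at 27.8, 22.0 and 23.8 CPM in CD73 KO and at 18.7, 12.8 and 21.4 CPM in the libraries labelled WT. The lowest value was that of the library labelled WT replicate 2, and the lowest CD73 KO library was just above the highest WT library. Tnf had a log2 fold change of 0.48 ± 0.19 SE (95% interval 0.05 to 0.91) and did not pass in edgeR (unadjusted p = 0.0317, adjusted p = 0.492). Without the library labelled WT replicate 2 it was 0.29 (unadjusted p = 0.156), and with the other single libraries left out it reached at most 0.63.

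The ratio of the neighbours within a library does not depend on the scaling between libraries. CD73 KO replicates 1 to 3 gave 1.59, 1.62 and 1.18 Tnf reads per Lta read, against 0.683, 0.435 and 0.754 for the libraries labelled WT. Every CD73 KO library had more Tnf than Lta reads, and every WT library had fewer. The mean log2 ratio differed by 1.25, or 2.38-fold, with an exact permutation p of 0.1 (two-sided), the smallest that 3 libraries against 3 can give. Both genes were already without overlap, in opposite directions. The separation of the ratios and this p follow from that and are no further evidence. With 1 library left out the difference was between 1.01 (without the library labelled WT replicate 2) and 1.41. The pair accounted for different shares of the summed RPKM of the 9 ligands: Lta for 4.90% to 5.78% in CD73 KO and 8.91% to 10.4% in WT, and Tnf for 5.74% to 7.17% and 3.76% to 6.62%.

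**Figure D3:**
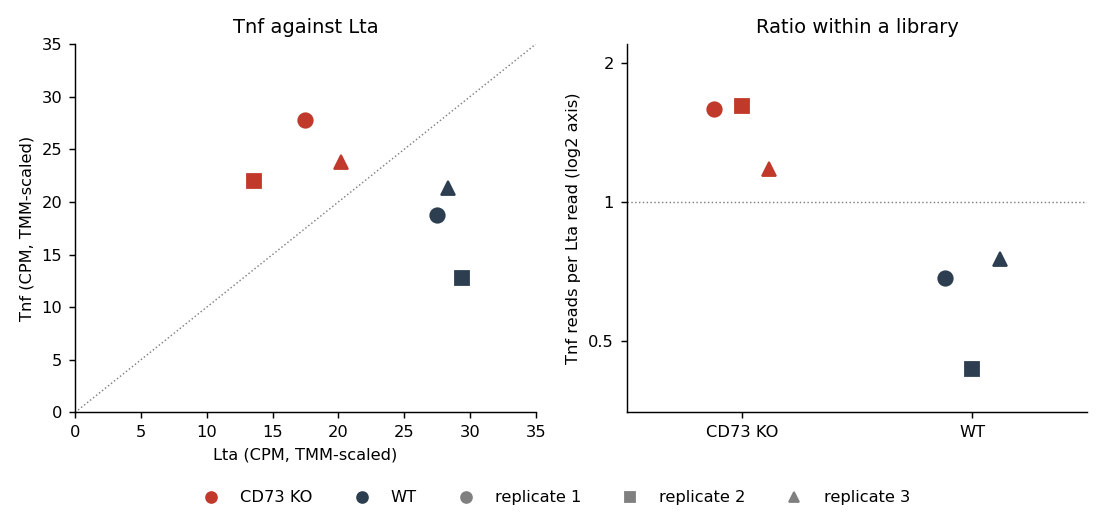
Left, CPM (TMM-scaled) of Tnf against Lta, 1 point per library, with a dotted line of equal values; right, Tnf reads per Lta read on a log2 axis with a dotted line at 1. The 3 CD73 KO libraries (red) lie at 1.18 to 1.62 Tnf reads per Lta read and the 3 WT libraries (dark blue) at 0.435 to 0.754.

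The sequences upstream of both genes are shown because the neighbours differed in direction. They are the bases before the RefSeq transcription start (GRCm38.p6), 5′ to 3′ on the gene's strand, and capitals mark the NFAT core (GGAAA, or TTTCC on the other strand), which is bound by the calcium-activated factors of T cell receptor signalling.
Tnf, chr17:35202008-35202257, minus strand: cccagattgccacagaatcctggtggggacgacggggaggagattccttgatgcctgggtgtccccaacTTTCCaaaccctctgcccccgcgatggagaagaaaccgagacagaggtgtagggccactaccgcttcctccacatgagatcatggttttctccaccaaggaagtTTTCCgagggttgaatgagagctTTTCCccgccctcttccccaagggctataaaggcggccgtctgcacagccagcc
Lta, chr17:35205352-35205601, minus strand: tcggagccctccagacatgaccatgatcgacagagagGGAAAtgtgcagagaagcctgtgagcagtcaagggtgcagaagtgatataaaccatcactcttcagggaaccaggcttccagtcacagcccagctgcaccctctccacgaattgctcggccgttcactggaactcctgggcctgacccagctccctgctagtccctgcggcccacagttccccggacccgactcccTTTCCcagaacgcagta
In the 300-base windows, which run 50 bases past the start, Tnf and Lta each held 3 NFAT cores. The core is common: 61.3% of 32851 promoter windows of that length hold it, and so did those of all 8 ligands with a window (Cd70 had none in the table). Neither gene's window held an exact match to AP-1 (TGANTCA), CRE (TGACGTCA) or the ISRE-like sequence (GAAA, any pair of bases, GAAA). The same held for the NF-kB motif (GGGRNWYYCC, where R is A or G, W is A or T, Y is C or T and N is any base). Near matches, such as TGAGATCA for CRE in the Tnf sequence, were not counted.

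Tnf and Lta also share a sequence in their messages. The pentamer ATTTA, when repeated in a 3′ untranslated region, is the core of AU-rich elements, which shorten the life of cytokine messages. The double form ATTTATTTA was found in 2 of the 9 ligands, Tnf and Lta, and in 6.56% of the 10738 tested genes with an annotated 3′ untranslated region. The stretches of 30 bases around it are shown with pentamers in capitals.
Tnf: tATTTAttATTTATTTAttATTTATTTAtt
Lta: aagttaagttATTTATTTAtagagaataga
In total Tnf had 8 pentamers in 764 bases and Lta 3 in 572, which is 10.5 and 5.24 per kilobase against 1.81 over all these genes. This density was not particular to the pair: Tnfsf11 had 5.31 per kilobase, Tnfsf8 3.57 and Cd70 12.8, the last from 1 pentamer in 78 bases. The search of untranslated regions was chosen after the values of the ligands were seen.

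Ltb, the membrane anchor of the lymphotoxin heterotrimer, was measured at 220.9, 151.9 and 224.0 CPM in CD73 KO and 171.9, 175.7 and 159.5 CPM in the libraries labelled WT. CD73 KO replicates 1 and 3 were above all WT libraries and replicate 2 was below them. The log2 fold change of 0.23 ± 0.15 SE (95% interval -0.09 to 0.56) did not pass in edgeR (adjusted p = 0.631). With 1 library left out it ran from 0.14 to 0.40, the highest being that without CD73 KO replicate 2 (edgeR, unadjusted p = 0.0047, adjusted p = 0.449). The Ltb window was the 1 of 8 with a match to the NF-kB motif, held by 4.51% of all windows. It spans bases -87 to -78 from the RefSeq start and overlaps an NFAT core. Capitals mark it in the bases that lie ahead of any annotated exon.
Ltb, chr17:35194257-35194438, plus strand: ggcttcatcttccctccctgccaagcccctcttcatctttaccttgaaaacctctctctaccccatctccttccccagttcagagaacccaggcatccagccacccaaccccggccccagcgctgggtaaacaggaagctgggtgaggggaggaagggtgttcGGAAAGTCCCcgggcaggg

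Of the costimulatory ligands, Tnfsf8 and Tnfsf14 were higher in CD73 KO without overlap, short of the adjusted threshold. Tnfsf8 encodes CD30L, the ligand of CD30 (ENSMUSG00000028362, chr4:63831308-63861347, minus strand). It was measured at 85.8, 82.2 and 58.2 CPM in CD73 KO and at 54.6, 57.5 and 53.5 CPM in the libraries labelled WT. CD73 KO replicates 1 and 2 were well above WT, and replicate 3 was barely above the highest WT library. Its log2 fold change was 0.45 ± 0.15 SE (95% interval 0.13 to 0.78; edgeR, unadjusted p = 0.011, adjusted p = 0.387), and it was positive with an unadjusted p under 0.05 in all 15 alternatives (0.34 to 0.60).

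Tnfsf14 encodes LIGHT, which binds HVEM on T cells and the lymphotoxin beta receptor on stromal cells (ENSMUSG00000005824, chr17:57189492-57194177, minus strand). Its values were 15.5, 11.9 and 14.3 CPM in CD73 KO and 11.1, 10.9 and 9.82 CPM in the libraries labelled WT. The gap between the groups was small, with CD73 KO replicate 2 close to WT replicate 1. Its log2 fold change was 0.39 ± 0.17 SE (95% interval 0.00 to 0.77; edgeR, unadjusted p = 0.0493, adjusted p = 0.517), and the unadjusted p was under 0.05 in 4 of 15 alternatives. Its window was the 1 of 8 with an AP-1 match (TGAGTCA, bases -160 to -154), which 7.81% of all windows hold. Capitals below mark that match and 3 NFAT cores; a further core lies past the start.
Tnfsf14, chr17:57194182-57194431, minus strand: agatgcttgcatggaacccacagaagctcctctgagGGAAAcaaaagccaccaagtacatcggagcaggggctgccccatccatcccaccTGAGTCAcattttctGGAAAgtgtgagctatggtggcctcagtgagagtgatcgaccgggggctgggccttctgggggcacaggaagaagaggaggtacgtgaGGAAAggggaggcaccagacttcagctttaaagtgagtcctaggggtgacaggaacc

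Cd70, the ligand of CD27 (ENSMUSG00000019489, chr17:57145997-57149777, minus strand), lies 39714 bases from Tnfsf14. It had 6, 2 and 3 counts in CD73 KO and 1, 3 and 1 in the libraries labelled WT, at or near the floor of 3 counts in all but CD73 KO replicate 1, and no fold change is given.

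The death ligands did not separate the genotypes. Tnfsf10 encodes TRAIL, which triggers apoptosis through DR5 in mice (ENSMUSG00000039304, chr3:27317028-27342427, plus strand). It was measured at 87.9, 121.6 and 145.0 CPM in CD73 KO and at 181.7, 114.4 and 86.0 CPM in the libraries labelled WT. The highest and the lowest library were both WT, and the CD73 KO libraries lay between them. The log2 fold change was -0.12 ± 0.29 SE (95% interval -0.80 to 0.57; edgeR, adjusted p = 0.917), and its sign changed when CD73 KO replicate 1 (0.05) or WT replicate 1 (0.23) was left out.

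Fasl encodes the Fas ligand of cytotoxic T cells (ENSMUSG00000000817, chr1:161780689-161788495, minus strand). It stood at 15.3, 25.7 and 29.5 CPM in CD73 KO and at 22.7, 20.1 and 20.5 CPM in the libraries labelled WT. CD73 KO replicate 1 was the lowest of the 6 libraries and replicates 2 and 3 were the highest. Fasl had a log2 fold change of 0.14 ± 0.22 SE (95% interval -0.35 to 0.63; edgeR, adjusted p = 0.858), and one of -0.050 without CD73 KO replicate 3.

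Tnfsf11 encodes RANKL, known for driving osteoclast formation (ENSMUSG00000022015, chr14:78277445-78308043, minus strand). It was measured at 11.2, 28.7 and 21.8 CPM in CD73 KO and at 25.5, 19.9 and 26.2 CPM in the libraries labelled WT. CD73 KO replicate 1 was again the lowest library, and replicate 2 was the highest. The log2 fold change was -0.22 ± 0.30 SE (95% interval -0.91 to 0.47; edgeR, adjusted p = 0.843), and it was 0.076 without CD73 KO replicate 1. The coefficient of variation among CD73 KO libraries was 42.7% for Tnfsf11 and 31.3% for Fasl, against 14.4% and 6.60% among WT libraries; the difference in spread was not tested.

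**Figure D4:**
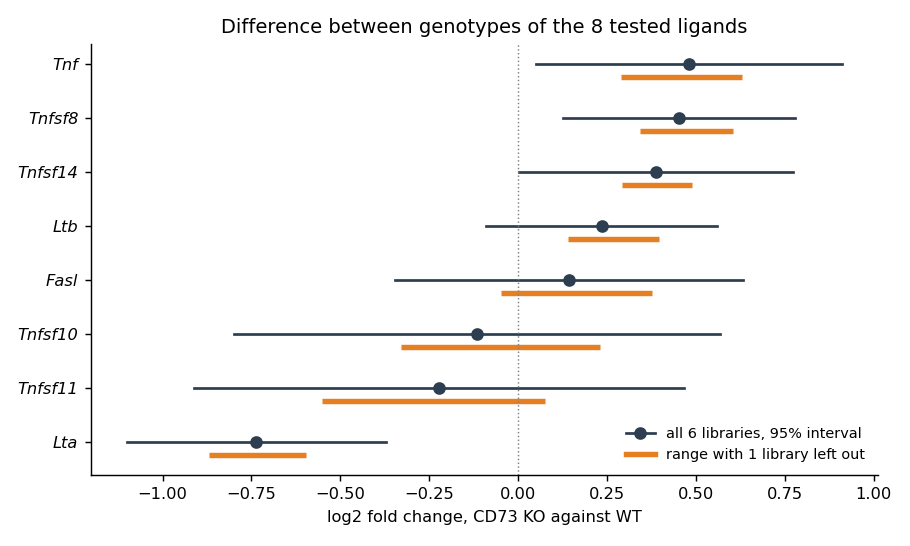
Log2 fold change (CD73 KO against WT) of the 8 tested ligands, with points and thin lines for the fit of all 6 libraries and its 95% interval, and orange bars for the range when 1 library is left out. The interval lies below 0 for Lta and above 0 for Tnf, Tnfsf8 and, barely, Tnfsf14, and the orange bar crosses 0 for Fasl, Tnfsf10 and Tnfsf11.

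Across the 6 libraries the ligands did not follow 1 order. Pearson's r of log2 CPM was -0.63 between Tnf and Lta, -0.88 between Lta and Tnfsf8, 0.85 between Ltb and Tnfsf14, 0.74 between Tnfsf11 and Fasl and -0.75 between Ltb and Tnfsf11. These are descriptions over 6 points that share library, depth and genotype. Among 9310 candidate genes, the 3 most like a ligand were Atcay, Dennd6b and A630001G21Rik for Tnf (r = 0.988, 0.979 and 0.978) and Sdhc, Cct5 and Slc25a15 for Lta (0.995, 0.994 and 0.988). Ino80b, Cript and Baiap3 came nearest to Ltb, Zup1, Klri2 and Cep120 to Tnfsf8, and Fxyd5, Irak2 and Otud5 to Tnfsf14. Ctc1, Myo1e and Gcnt1 came nearest to Tnfsf10 (0.963, 0.962 and 0.956), and Ccdc71, Ap5b1 and Ppp1r13b to Fasl. Between 24 (Tnfsf10) and 179 (Lta) candidates reached an r of 0.9 with a ligand, so the top ranks were closely contested.

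The other genes of the pathway were read from 10 lists, of which 92 of 104 genes were tested. None passed the adjusted threshold in edgeR (0 of 92), while DESeq2 called 5, all of them interferon-stimulated genes, limma-voom called 0, and edgeR without the filter on low counts called 11 (4 outside the interferon list). At an unadjusted p under 0.05, 21 were higher and 2 lower (5.75% and 3.89% of all tested genes). Without the interferon list these were 11 higher and 2 lower of 80. Over all tested genes 52.3% were higher at any p. The lists were chosen with earlier results of these data known, so no enrichment is read from their counts. Of 9 further ligands of the family, 3 were tested. Tnfsf9, which encodes the costimulatory ligand 4-1BBL, was at 3.50 ± 0.618 CPM in CD73 KO and 1.91 ± 0.551 in WT (log2 fold change 0.86 ± 0.31 SE; edgeR, adjusted p = 0.439). Cd40lg, better known from helper T cells, was at 1.43 ± 0.362 and 2.43 ± 0.221 CPM (-0.74 ± 0.31 SE; edgeR, adjusted p = 0.503). Tnfsf4, which encodes OX40L, had a log2 fold change of -0.16 ± 0.42 SE, and Tnfsf18 and Eda were at 0 counts in every library.

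RNA of receptors for several of these ligands was found in the same libraries. Of 12 receptor genes, 8 were tested, 5 higher and 3 lower, none with an unadjusted p under 0.05 and with a median log2 fold change of 0.14 (0.062 without CD73 KO replicate 3). Cd27, the receptor of CD70, was the most abundant at 82.6 RPKM over the 6 libraries (log2 fold change 0.21 ± 0.11 SE; edgeR, adjusted p = 0.582), while Cd70 was near the floor. Tnfrsf1b, which encodes TNFR2, averaged 30.7 RPKM (0.07 ± 0.17 SE). Tnfrsf14, the LIGHT receptor HVEM, had 0.31 ± 0.21 SE, and Tnfrsf10b, the TRAIL receptor DR5, had -0.31 ± 0.21 SE. Ltbr, the receptor of the lymphotoxin heterotrimer, had 0 to 5 counts per library, and Tnfrsf11a, the RANKL receptor, had 0 or 1. Tnfrsf8, which encodes CD30, had 0 to 14 counts, and Tnfrsf11b, the decoy receptor of RANKL, also 0 to 14. Reads of the genes for lymphotoxin beta, CD30L and RANKL were thus plentiful in libraries with few or no reads of Ltbr, Tnfrsf8 and Tnfrsf11a.

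Downstream of the receptors, differences were small. In the death signalling list 6 of 11 genes were higher and 5 lower (median 0.11, and 0.011 without CD73 KO replicate 3). Ripk3, the kinase of necroptosis, had a log2 fold change of 0.41 ± 0.15 SE (edgeR, adjusted p = 0.439), and Casp8, the initiator caspase, 0.22 ± 0.13 SE. All 12 TRAF adaptors, IAPs and ubiquitin enzymes were higher in CD73 KO (11 with limma-voom, and 9 without the library labelled WT replicate 2), against 52.3% of all tested genes. Their median was 0.07 (0.19 without CD73 KO replicate 2). In edgeR 4 of the 12 had an unadjusted p under 0.05, against 5.75% of all genes that were higher with such a p. These 4 were Birc2 (0.45 ± 0.15 SE; edgeR, adjusted p = 0.379) and Birc3 (0.32 ± 0.12 SE), which encode the cellular IAPs, Traf1 (0.30 ± 0.11 SE) and Rnf31 (0.31 ± 0.13 SE), the catalytic subunit of the linear ubiquitin ligase. The most abundant was Otulin, which removes linear ubiquitin, at 51.7 RPKM.

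Of 11 NF-kB kinases and subunits, 8 were higher and 3 lower (median 0.13, and 0.022 without CD73 KO replicate 1), none with an unadjusted p under 0.05. Ikbkg, the regulatory subunit of the IKK complex, had 0.21 ± 0.11 SE, Relb 0.36 ± 0.23 SE and Tab2 0.16 ± 0.11 SE, and Rela, which encodes p65, was the most abundant at 36.2 RPKM. Among 8 feedback targets of NF-kB, 7 were higher (median 0.50). Nfkbie had 0.59 ± 0.20 SE (edgeR, adjusted p = 0.394), Nfkbiz 0.87 ± 0.31 SE and Tnip2 0.42 ± 0.19 SE. Nfkbia, which encodes the inhibitor that NF-kB itself induces, was at 296.4, 63.0 and 77.4 CPM in CD73 KO and at 96.4, 85.3 and 68.6 CPM in WT, so that CD73 KO replicate 1 stood far above the rest. The summed level of the list was 827, 369 and 436 CPM in CD73 KO and 405, 370 and 381 in WT, and its median was 0.18 without CD73 KO replicate 1, the library that was also lowest for Fasl and Tnfsf11.

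The remaining lists concern how ligands are made, kept and released. Of 6 tested shedding proteases, which cut TNF-family proteins from the membrane or help to, 5 had a log2 fold change below 0 (4 with scaling by library size alone), with a median of -0.04 (between -0.088 and 0.010 with 1 library left out). Rhbdf2 had -0.20 ± 0.20 SE, Sppl2a -0.05 and Adam10, the most abundant, -0.10 ± 0.13 SE. Adam17, the TNF-converting enzyme, was at 99.6 ± 13.1 CPM in CD73 KO and 99.6 ± 3.90 in WT. Of 8 proteins that bind AU-rich or related elements, 6 genes were higher (median 0.28, but -0.07 without CD73 KO replicate 1). Rc3h2, which encodes Roquin-2, had 0.49 (edgeR, adjusted p = 0.431), Rc3h1 0.24 and Zc3h12a, which encodes Regnase-1, 0.50, and the most abundant was Khsrp with -0.06. Of 13 transcription factors of activated T cells, 11 were higher (median 0.28, and 0.12 without CD73 KO replicate 3). Egr2, induced by T cell receptor signals, was at 14.5 ± 1.36 CPM in CD73 KO and 8.48 ± 1.63 in WT, without overlap (0.78 ± 0.19 SE; edgeR, adjusted p = 0.287), Egr1 had 0.30, Irf4 0.35, and Junb was the most abundant at 51.3 RPKM.

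Tnfsf10 is known as a gene induced by interferon, so interferon-stimulated genes were read beside it. All 12 were higher in CD73 KO, against 52.3% of all tested genes, and the median log2 fold change was 1.72. In edgeR 10 of them had an unadjusted p under 0.05, against 5.75% of all genes that were higher with such a p. None passed the adjusted threshold in edgeR (5 in DESeq2). This list too was chosen with earlier results of these data known, so no enrichment is read from these counts. Oasl2 had 2.58 ± 0.50 SE (edgeR, adjusted p = 0.187), Ifit1 1.65 ± 0.39 SE and Ifi44 3.93 ± 0.87 SE, while Bst2, the most abundant, had 0.29. Their summed level was 656, 608 and 491 CPM in CD73 KO and 189, 323 and 409 in WT. Tnfsf10 did not follow that order: its highest library, WT replicate 1, had the lowest interferon sum. What interferon contributed to Tnfsf10 RNA in these cells was not tested. The Tnfsf10 window held no exact match to the ISRE-like sequence (GAAA, any pair of bases, GAAA), which 3.44% of all windows hold. Near matches were not counted, and the window holds TTTCACTTTT, which resembles that sequence on the other strand.

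**Figure D5:**
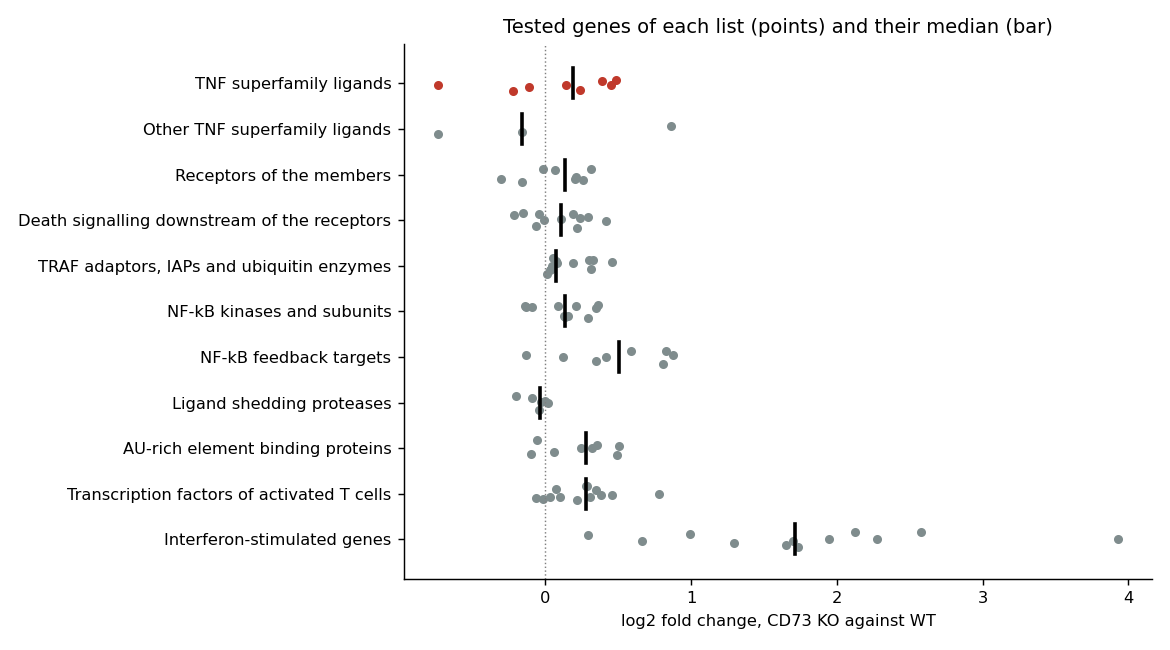
Log2 fold change (CD73 KO against WT) of every tested gene in each list (points) and the median of the list (bar), with the TNF superfamily ligands in red. The ligands spread from -0.74 to 0.48 around a median of 0.19, and the interferon-stimulated genes have a median of 1.72.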

How the data were processed

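Per the labels, RNA libraries were made with a strand-preserving kit from live sorted cells. The authors deposited raw read counts for each gene with a column for each of the 6 libraries; the submitters' processing notes name fastp, HISAT2, featureCounts and the mm10 build. Tool versions, strand setting and annotation release were not given in the sources used here. All columns matched a sample, and symbols were found for 49326 of 49671 identifiers. Without a stated strand setting, genes that overlap on opposite strands cannot be told apart. The genes found to overlap a ligand were 2 microRNA genes in Ltb and Lta (Mir6973a and Mir6974), with 0 to 15 counts. Each lies on the strand of its host, so no strand setting would separate them.

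Genes were kept with filterByExpr (minimum count 10, minimum total count 15), which left 12242, and tested with edgeR 4.0.16 (quasi-likelihood F-test, legacy fit, TMM factors, robust dispersions) under R 4.3.3. The Benjamini-Hochberg adjustment covered every tested gene, with a threshold of 0.05. The standard error is the log2 fold change divided by the square root of F. Alternatives used DESeq2 1.42.0, limma-voom (limma 3.58.1), other scalings, filters and fits, the replicate block, and each library left out. The fit was tested on simulated data (200 genes changed among 12242); 7.81% of its calls were false. Lengths and coordinates came from GENCODE M21 (GRCm38), and promoter windows (250 bases before to 50 after the start) from RefSeq (GRCm38.p6). RPKM values were computed from the counts here.

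The members and lists were chosen with earlier results of these data known. Named genes were all members, Nt5e, of each list up to 3 genes of smallest p and the one of highest level, and 3 genes per member by Pearson's r of log2 CPM over the 6 libraries (at least 5 CPM on average). Other list genes named, including all receptors near 0, were chosen after their values were seen. No 2 libraries agreed within sampling noise (chi-square per degree of freedom 6.97 to 31.4). The labels use the same replicate numbers in both genotypes, and whether equal numbers share an experiment is not stated. Some genes that this rule names are not reported here.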

Additional observations from a re-analysis of the deposited data

How the results depend on the processing

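The 7 genes called by edgeR over all genes became 298 without a filter on low counts and 99 with DESeq2, and 4 to 8 with 1 library left out; the count was 4 without CD73 KO replicate 2 or the library labelled WT replicate 2. The count of ligands called was 0, and 1 (Lta) without the filter and with DESeq2; it was 0 in the other 13 alternatives. With 1 library left out, Tnfsf10 had log2 fold changes between -0.33 and 0.23, Tnfsf11 between -0.55 and 0.076 and Fasl between -0.050 and 0.38, each with a change of sign; the other 5 tested ligands kept their direction in all 15 alternatives. The median over the tested ligands ran from 0.05 to 0.24. Ligands with an unadjusted p under 0.05 numbered 4, but 2 without CD73 KO replicate 3 or the library labelled WT replicate 2 and 5 without CD73 KO replicate 2. Deviations of same-numbered libraries from their group means had r of 0.144, -0.168 and 0.00745, and each CD73 KO library correlated best with a WT library of another number. With so few libraries per group this check cannot decide whether the numbers pair the samples. With the replicate block 5 genes were called, 0 of them ligands, and the log2 fold change of Lta was -0.75 and that of Tnf 0.50; the log2 ratio of Tnf to Lta differed by 1.25. Cd70 and 4 receptor genes had too few counts to be tested, and the part of sequencing depth in this was not tested.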
